A study of Homo sapiens with 4 samples.

Results

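The DNA damage response and repair genes examined here are 53 genes, named by gene symbol from textbook repair pathways, with earlier results of these data known but with no measured value in the rule, out of 50868 genes listed for Jurkat cells, an immortalised human T lymphoblast line. They comprised 10 genes of homologous recombination, 5 of end resection and unwinding, 10 of the Fanconi anaemia pathway, 6 damage kinases and checkpoint genes, 4 genes of break-site chromatin signalling, 5 of end joining, 5 of base excision and single-strand break repair, 3 of mismatch repair and 5 of nucleotide excision repair. All 4 conditions used unmodified (WT) Jurkat cells collected after 24 h. They were DMSO, the solvent alone; JQ1, an inhibitor of the BET bromodomain proteins, at 0.5 µM; DMSO + PHA, with the T cell mitogen phytohemagglutinin at 150 ng/ml; and JQ1 + PHA, with both agents at these doses. Each condition was 1 RNA-seq library of 1 cell line, so the differences below have no replicate check, and no test between conditions was possible. In bulk RNA of this kind, fewer cells making a transcript and less transcript per cell cannot be told apart.

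Cells repair DNA by pathways that suit the lesion. Double-strand breaks are rejoined directly by end joining or copied from a sister chromatid by homologous recombination, crosslinks are unhooked with the help of the Fanconi proteins, and damaged or mispaired bases are cut out by base excision, nucleotide excision and mismatch repair, while the kinases ATM and ATR signal the damage to the cell cycle. In lymphocytes the end-joining factors also seal the breaks made during antigen receptor gene rearrangement. JQ1 displaces the BET proteins, which bind acetylated histones and help RNA polymerase II to elongate, so the study's JQ1 comparisons ask how transcripts stood after this displacement, in unstimulated and in stimulated cells.

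The libraries held 18620954 to 19685401 counts, of which the 53 genes took 0.845% in DMSO, 0.784% in JQ1, 0.837% in DMSO + PHA and 0.802% in JQ1 + PHA. Mitochondrial genes took 6.27% to 7.07% of counts. HEXIM1, a gene known to be raised by BET inhibitors, stood at 36.2, 109, 34.6 and 104 FPKM (fragments per kilobase of transcript, scaled to the size of the library) in DMSO, JQ1, DMSO + PHA and JQ1 + PHA, and EGR1, an early gene of T cell stimulation, at 0.491, 0.405, 39.9 and 6.85 FPKM. All 8 T cell markers passed the filter, and all 8 were lower in both JQ1 comparisons, with median log2 ratios of -0.80 and -1.09 and a summed level of 262, 136, 299 and 154 FPKM; their part in the ratios of the repair genes was not tested. The defining markers of monocytes, erythroid cells and epithelium were at or near 0, as was the B cell marker MS4A1, whereas CD79A, a B cell receptor subunit, was at 7.48, 1.06, 6.33 and 1.01 FPKM.

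The repair genes as a set moved little with JQ1, and 3 of them carried the large differences. RAD51D, a factor of homologous recombination, and XRCC4, the scaffold of the end-joining ligase, were lower in both JQ1 libraries than in both DMSO libraries. XPC, the lesion sensor of nucleotide excision repair, was higher in both. All 5 end-joining genes were lower with JQ1 in either state, except that PRKDC with PHA came to 0.00 under DESeq2 size factors. Over all genes, 38.5% had both JQ1 libraries below both DMSO libraries in FPKM, as these 5 did. The other pathways held members on both sides without PHA. With it, all but break-site chromatin signalling, whose 4 members were all below 0, did so.

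Genes with a mean of at least 1 FPKM over the 4 libraries entered the comparisons, which left 52 of the 53 members and 11503 genes in all. The member left out was OGG1, a glycosylase that removes oxidised guanine. A ratio of at least 2-fold was read on log2(FPKM + 0.1). In JQ1 against DMSO, 0 of 52 members were at least 2-fold higher, against 5.22% of all genes, and 1 (RAD51D, 1.92%) was at least 2-fold lower, against 8.65%. In JQ1 + PHA against DMSO + PHA, 1 member (XPC, 1.92%) was at least 2-fold higher, against 3.69% of all genes, and 2 (RAD51D and XRCC4, 3.85%) were at least 2-fold lower, against 8%. The member shares were below those over all genes in each direction.

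With the line drawn at 1.5-fold, ATM and XPC were higher in JQ1 than in DMSO (2 members; 14.8% of all genes) and FANCF, PALB2, RAD51D, UNG and XRCC4 were lower (5 members; 19.3%). In the presence of PHA, XPC was higher (1 member; 11.7%) and ATRIP, FANCD2, FANCF, LIG4, PMS2, RAD51D and XRCC4 were lower (7 members; 17.8%). These shares too were no larger than those of all genes. Among the 3763 genes with levels within the middle 50% of member levels, 4.84 to 15.0 FPKM, 10.7% were past 2-fold either way without PHA and 8.98% with it, and of the 26 members in that range 0 were.

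The spread of the members was narrower than that of all genes. The median log2 ratio was -0.08 for the members and -0.01 for all genes in JQ1 against DMSO, and -0.07 and -0.02 with PHA. The median size of the log2 ratio, sign left aside, was 0.28 for members and 0.41 for all genes without PHA, and 0.25 and 0.36 with PHA. The highest of a member's 4 library values was a median 1.33 times its lowest, against 1.5 times for all genes, and 37 of 52 members (71.2%) stayed within 1.5-fold over all 4 libraries, against 50.2% of all genes. With FPKM rescaled to a common total, the split of members in JQ1 against DMSO, 21 above and 31 below 0, became 26 and 26, so a direction of the whole set was not called.

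**Figure D1:**
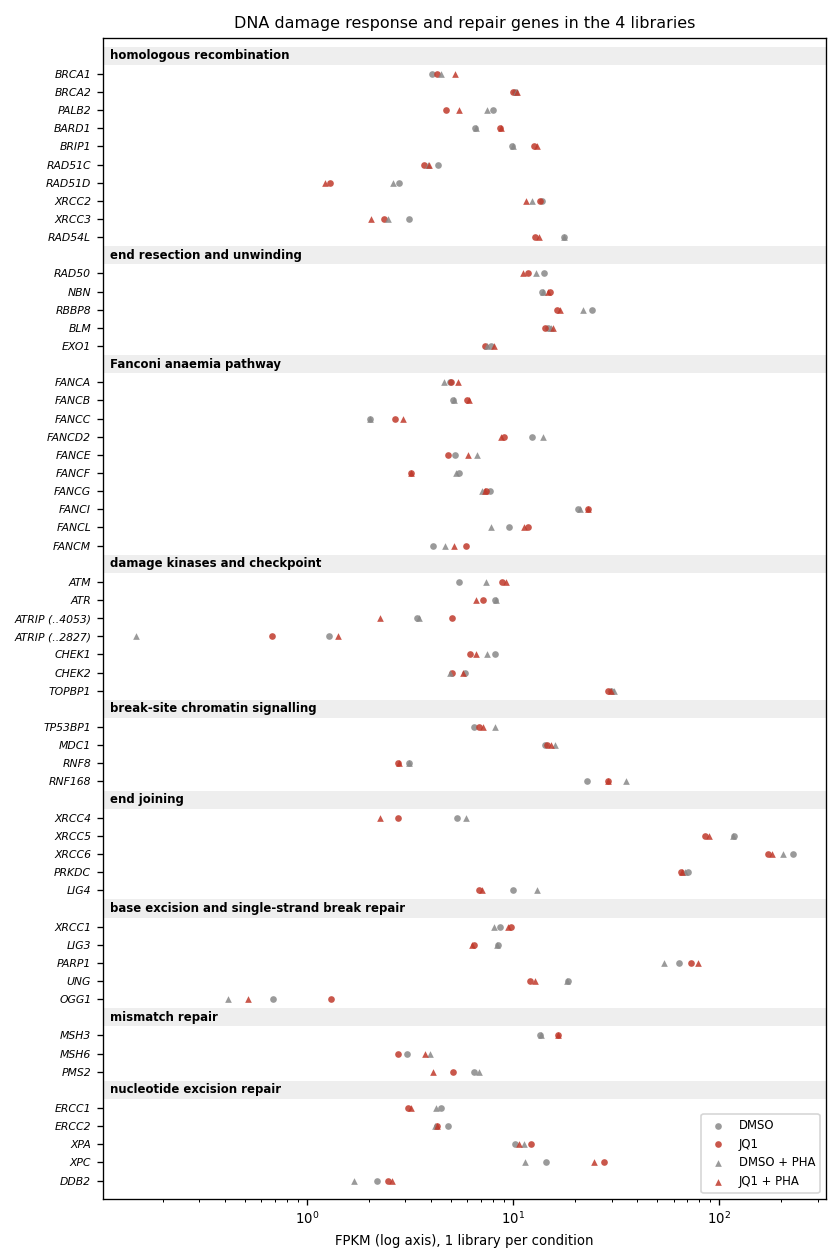
FPKM (log axis) of every repair gene in the 4 libraries, grouped by pathway; circles are libraries without PHA, triangles with PHA, grey DMSO and red JQ1. The 4 points of most genes lie close together, XRCC6, XRCC5, PRKDC and PARP1 stand highest, and the red points of RAD51D and XRCC4 stand to the left of the grey ones and those of XPC to the right.

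For single genes the ratio of each gene's share of counts was taken with a 95% exact interval, which covers counting error only. Counting error was small at this depth, so the intervals of many genes missed 0. In JQ1 against DMSO, 17 members lay above 0 and 24 below, where all genes gave 36.9% and 38.7%, and in JQ1 + PHA against DMSO + PHA 17 lay above and 23 below, against 34.6% and 38.2%. Above 0 in both comparisons were 14 members, against 28% of all genes. Below 0 in both were 19 members, against 30.8%. The counts by pathway below stand beside these same 28% and 30.8%. The 2 JQ1 comparisons share no library, and across the 52 members their log2 ratios had a Pearson correlation of 0.79 and a Spearman correlation of 0.78, beside 0.74 and 0.79 over all genes.

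Read without intervals, both JQ1 libraries lay above both DMSO libraries in FPKM for 15 members, against 36.3% of all genes, and below them for 20 members, against 38.5%. Among the 15 were ATM, BARD1, BRIP1, FANCC, FANCL, PARP1 and XPC. Among the 20 were all 5 end-joining genes, FANCD2, FANCF, LIG3, PALB2, RAD51D, RBBP8 and UNG. The remaining 17 overlapped between the JQ1 and DMSO libraries, BRCA1, BRCA2 and TOPBP1 among them.

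**Figure D2:**
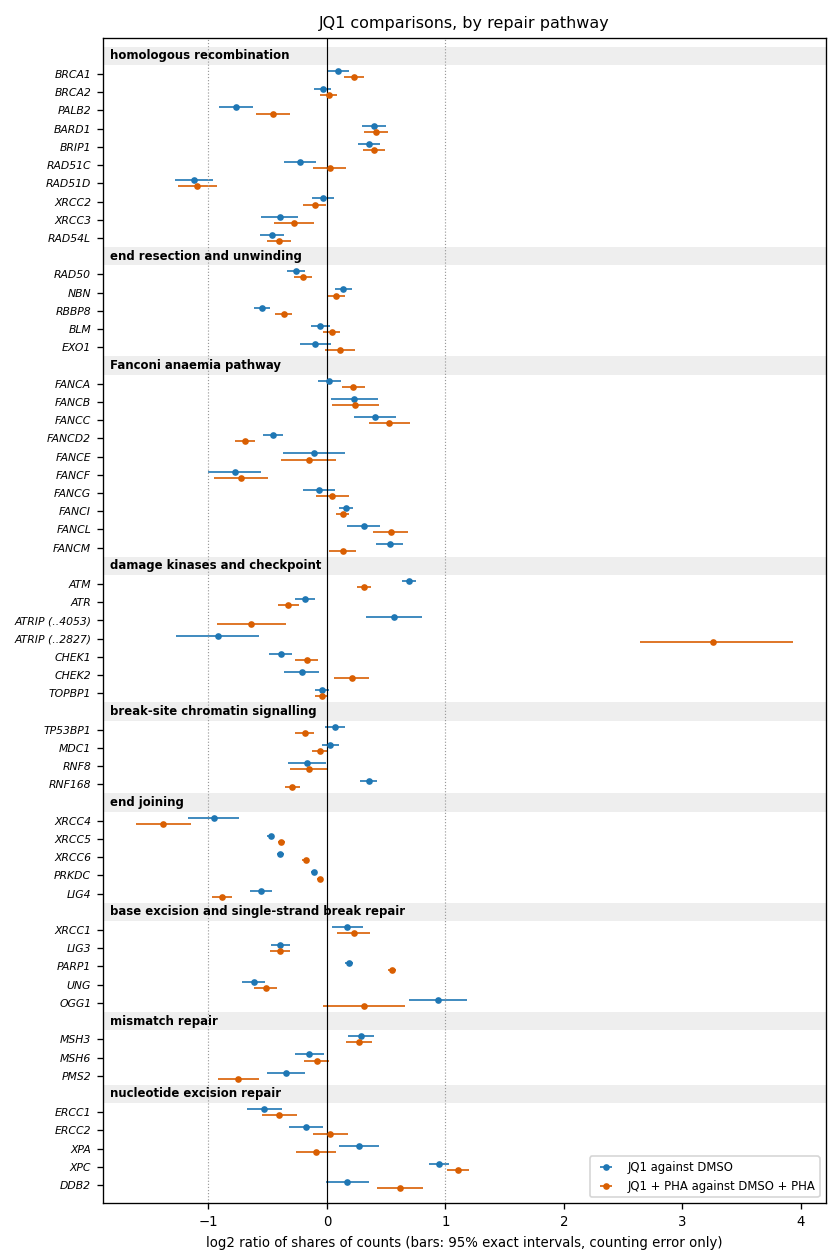
Log2 ratio of shares of counts for each repair gene in JQ1 against DMSO (blue) and JQ1 + PHA against DMSO + PHA (orange), with 95% exact intervals for counting error; dotted lines mark 2-fold. All 5 end-joining genes lie left of 0 in both colours (PRKDC with PHA came to 0.00 under DESeq2 size factors), and the second ATRIP identifier is the only point beyond 3.

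Averaged over the 2 JQ1 comparisons, RAD51D and XRCC4 had the lowest log2 ratios of the members that passed the filter, and XPC and ATM the highest. Their promoters are shown from 250 bases before to 50 bases after the transcription start (RefSeq, GRCh38.p14), 5′ to 3′ on the gene's own strand so that the start regions of the genes that differed most can be read beside their values. XRCC4 is chr5:83077297-83077596 on the plus strand, RAD51D chr17:35119709-35120008 on the minus strand, XPC chr3:14178552-14178851 on the minus strand and ATM chr11:108222817-108223116 on the plus strand. Capitals mark matches, on either strand, to E2F words (TTTCCCGC, TTTCGCGC, TTTGCCGC or TTTGGCGC), the CCAAT box (CCAAT), the cell cycle homology region, CHR (TTTGAA), and the GC box (GGGCGG).
XRCC4: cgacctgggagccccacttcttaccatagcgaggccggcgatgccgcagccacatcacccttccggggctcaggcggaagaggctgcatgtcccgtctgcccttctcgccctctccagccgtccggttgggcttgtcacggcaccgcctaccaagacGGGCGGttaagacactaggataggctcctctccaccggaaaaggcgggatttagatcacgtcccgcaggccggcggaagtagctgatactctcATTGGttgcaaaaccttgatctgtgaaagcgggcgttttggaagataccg
RAD51D: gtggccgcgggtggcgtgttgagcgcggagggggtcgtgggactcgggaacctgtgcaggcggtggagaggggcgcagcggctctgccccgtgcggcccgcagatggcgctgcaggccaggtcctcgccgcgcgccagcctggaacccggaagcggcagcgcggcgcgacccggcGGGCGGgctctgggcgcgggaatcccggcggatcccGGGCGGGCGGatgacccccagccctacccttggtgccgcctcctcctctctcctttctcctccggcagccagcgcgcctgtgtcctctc
XPC: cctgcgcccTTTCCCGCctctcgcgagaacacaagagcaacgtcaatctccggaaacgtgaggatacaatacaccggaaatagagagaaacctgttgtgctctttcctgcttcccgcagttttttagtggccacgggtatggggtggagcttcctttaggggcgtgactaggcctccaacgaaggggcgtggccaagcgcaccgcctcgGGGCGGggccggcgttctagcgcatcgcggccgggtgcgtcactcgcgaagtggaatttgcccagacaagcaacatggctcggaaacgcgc
ATM: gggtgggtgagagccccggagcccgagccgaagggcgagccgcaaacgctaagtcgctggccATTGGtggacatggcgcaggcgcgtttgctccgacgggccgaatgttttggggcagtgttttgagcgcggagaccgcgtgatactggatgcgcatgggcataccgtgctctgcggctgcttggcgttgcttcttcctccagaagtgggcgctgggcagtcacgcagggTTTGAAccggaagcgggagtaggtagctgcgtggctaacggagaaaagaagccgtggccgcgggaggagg

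The 4 promoters shared no one motif. XRCC4 held 1 CCAAT box and 1 GC box, RAD51D 3 GC boxes, XPC 1 E2F word and 1 GC box, and ATM 1 CCAAT box and 1 CHR. A promoter was on hand for 48 of the 52 members. Among these 48, 11 (22.9%) held an E2F word, against 3.33% of all 27305 promoters and 5.87% of the 8159 compared genes that had one, which are 71.0% of the 11503, so this last share covers only part of them. CCAAT stood in 47.9% of members, 35.7% of all promoters and 38.2% of those of compared genes, and the GC box in 81.2%, 44.6% and 71.7%. CHR stood in 10.4% of members, below the 15.4% of all promoters and close to the 9.81% of compared genes. A match is a stretch of letters and not evidence of a bound site. The 11 members with an E2F word had median log2 ratios of -0.04 and -0.04 in the 2 JQ1 comparisons, and the 37 without had -0.11 and -0.15.

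In homologous recombination the JQ1 libraries were lower for some genes and higher for others. RAD51D (chr17:35092208-35121522 in the deposited coordinates, GRCh38) was measured at 2.80 FPKM in DMSO, 1.29 in JQ1, 2.62 in DMSO + PHA and 1.23 in JQ1 + PHA, from 980, 471, 960 and 426 counts. Both JQ1 libraries lay below both DMSO libraries, by 2.18-fold without PHA (log2 ratio -1.12, 95% exact interval -1.28 to -0.96) and 2.13-fold with it (-1.09, -1.26 to -0.93). Counting error could not tell the 2 ratios apart, the interval of their difference being -0.20 to 0.26. PALB2, which brings BRCA2 to BRCA1, was at 8.02, 4.71, 7.44 and 5.44 FPKM in the same order, with log2 ratios of -0.77 (-0.91 to -0.62) and -0.45 (-0.60 to -0.31). Its 2 JQ1 libraries were below both DMSO libraries, and the ratio was nearer 0 with PHA, the difference having an interval of 0.11 to 0.52.

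The core recombination genes BRCA1 and BRCA2 stayed close to level. BRCA1, the ubiquitin ligase that promotes recombination, was at 4.02, 4.29, 4.49 and 5.24 FPKM, and its JQ1 ratio was 0.10 (0.00 to 0.19) in unstimulated cells and 0.23 (0.14 to 0.31) in stimulated ones. BRCA2, a central mediator of strand exchange, was at 10.2, 9.96, 10.3 and 10.4 FPKM, and both intervals held 0. BARD1, the BRCA1 partner, and BRIP1, a BRCA1-bound helicase, were higher with JQ1, at log2 ratios of 0.40 and 0.41 for BARD1 and 0.36 and 0.39 for BRIP1. XRCC3, a further recombination factor, was lower at -0.40 and -0.27, and RAD54L, a translocase of strand exchange, at -0.46 and -0.40. Thus 3 of the 10 lay above 0 and 4 below 0 in both comparisons, where all genes gave 28% and 30.8%. The sum of the 10 ran from 73.8 FPKM in JQ1 to 80.3 in DMSO.

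End resection, which trims the broken ends before recombination, had 2 of its 5 genes below 0 and 1 above 0 in both JQ1 comparisons. RBBP8, the CtIP nuclease cofactor that starts resection, was at 24.0, 16.4, 21.7 and 16.9 FPKM in DMSO, JQ1, DMSO + PHA and JQ1 + PHA, with log2 ratios of -0.55 (-0.62 to -0.48) and -0.37 (-0.44 to -0.30). Both JQ1 libraries lay below both DMSO libraries. RAD50, a structural subunit of the MRN complex, was at 14.2, 11.9, 12.9 and 11.2 FPKM, with ratios of -0.26 (-0.33 to -0.18) and -0.20 (-0.28 to -0.12). NBN, the regulatory subunit of the same complex, went the other way at 0.14 and 0.08. BLM, a helicase, and EXO1, a nuclease, had intervals that held 0 in both.

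The Fanconi anaemia genes divided within the pathway. Of 10, 5 (FANCB, FANCC, FANCI, FANCL and FANCM) lay above 0 in both JQ1 comparisons and 2 (FANCD2 and FANCF) lay below. All genes gave 28% above and 30.8% below. FANCF, an adaptor of the core complex, was at 5.45, 3.18, 5.31 and 3.21 FPKM from 438, 267, 446 and 255 counts, with log2 ratios of -0.78 (-1.004 to -0.56) and -0.73 (-0.95 to -0.50). FANCD2, the protein that the core complex ubiquitinates, was at 12.3, 8.98, 14.0 and 8.70 FPKM, with ratios of -0.45 (-0.54 to -0.37) and -0.69 (-0.77 to -0.60). FANCI, which pairs with FANCD2 in the clamp on DNA, stood apart from it at 20.6, 23.0, 21.0 and 23.0 FPKM and ratios of 0.16 and 0.13. FANCL, the ligase that adds the ubiquitin, had ratios of 0.31 and 0.54. The higher and lower members offset each other, and the summed FPKM of the 10 genes was 76.999 in DMSO, 78.8 in JQ1, 78.3 in DMSO + PHA and 79.1 in JQ1 + PHA.

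The damage kinases differed from each other. ATM, the kinase of double-strand breaks (chr11:108222484-108369102), was at 5.47 FPKM in DMSO, 8.84 in JQ1, 7.40 in DMSO + PHA and 9.19 in JQ1 + PHA, from 3346, 5655, 4737 and 5563 counts. DMSO alone was the low library, and the JQ1 ratio was 0.69 (0.63 to 0.75) without PHA and 0.31 (0.26 to 0.37) with it, a difference of -0.38 (-0.46 to -0.30). ATR, the kinase of stalled forks, was at 8.15, 7.17, 8.26 and 6.60 FPKM, with ratios of -0.18 (-0.27 to -0.10) and -0.32 (-0.41 to -0.24). CHEK1, the checkpoint kinase that ATR activates, was at 8.12, 6.20, 7.44 and 6.61 FPKM, with ratios of -0.39 (-0.49 to -0.29) and -0.17 (-0.27 to -0.07). ATM was therefore higher while ATR and CHEK1 were lower in both JQ1 comparisons. TOPBP1, the activator of ATR, was at 28.8 to 30.8 FPKM in the 4 libraries and held 0 in both intervals.

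ATRIP, the partner of ATR, was listed under 2 identifiers whose counts traded places. ENSG00000164053, which passed the filter, had 246, 380, 263 and 160 counts in DMSO, JQ1, DMSO + PHA and JQ1 + PHA, and ENSG00000282827, which did not, had 199, 110, 24 and 217. The first gave JQ1 ratios of 0.56 (0.33 to 0.80) and -0.64 (-0.93 to -0.35), on opposite sides of 0. The sum of both identifiers was 445, 490, 287 and 377 counts, with ratios of 0.07 (-0.11 to 0.26) and 0.47 (0.25 to 0.70). The direction of ATRIP with PHA thus turned with the choice of identifier.

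Break-site chromatin signalling, which marks chromatin beside a break with ubiquitin, had no member that lay on the same side of 0 in both JQ1 intervals. RNF8, the first ubiquitin ligase at the break, was at 3.12, 2.78, 3.12 and 2.80 FPKM, with ratios of -0.17 (-0.33 to -0.01) and -0.15 (-0.31 to 0.01). TP53BP1, which binds the ubiquitinated nucleosome and restrains resection, was at 6.49, 6.81, 8.17 and 7.17 FPKM, with ratios of 0.07 (-0.01 to 0.15) and -0.19 (-0.27 to -0.11). Its highest library was DMSO + PHA. RNF168, the ligase that follows RNF8, was at 22.7, 29.0, 35.4 and 28.9 FPKM, so the JQ1 ratio was 0.35 (0.28 to 0.42) without PHA and -0.29 (-0.35 to -0.23) with it. The JQ1 and JQ1 + PHA libraries were level with each other and lay between the 2 DMSO libraries.

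End joining was the pathway in which every member lay below 0 in both JQ1 comparisons, with 1 exception under another scaling: PRKDC with PHA stood at 0.00 once DESeq2 size factors were used. Of all genes, 30.8% had intervals below 0 in both, and the pathway held only 5 genes. The summed FPKM of the 5 genes was 431 in DMSO, 333 in JQ1, 408 in DMSO + PHA and 345 in JQ1 + PHA. XRCC6 and XRCC5 made up most of this sum, so it says little of the genes with lower levels. The median log2 ratio of the 5 was -0.47 without PHA and -0.38 with it, beside -0.01 and -0.02 over all genes. XRCC4 (chr5:83077498-83353787) was at 5.34, 2.76, 5.88 and 2.26 FPKM, from 506, 273, 583 and 212 counts. The JQ1 libraries were 1.94-fold lower without PHA (-0.95, -1.17 to -0.74) and 2.60-fold lower with it (-1.38, -1.61 to -1.15). LIG4, the ligase that XRCC4 holds, was at 9.98, 6.79, 13.0 and 7.04 FPKM, with ratios of -0.55 (-0.65 to -0.46) and -0.89 (-0.97 to -0.80). For both partners the ratio was larger in size with PHA, the difference being -0.42 (-0.74 to -0.11) for XRCC4 and -0.33 (-0.46 to -0.21) for LIG4.

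The Ku and kinase subunits, which bind the broken end first, showed smaller ratios on far higher levels. XRCC6, the Ku70 subunit, was at 227, 173, 204 and 181 FPKM, with ratios of -0.39 (-0.42 to -0.36) and -0.18 (-0.21 to -0.15). XRCC5, the Ku80 subunit, was at 118, 85.02, 116 and 89.1 FPKM, with ratios of -0.47 (-0.51 to -0.44) and -0.38 (-0.42 to -0.35). PRKDC, the DNA-dependent kinase that Ku recruits, was at 70.5, 65.3, 68.3 and 65.6 FPKM, with ratios of -0.11 (-0.14 to -0.09) and -0.06 (-0.08 to -0.03). The ordering of sizes was therefore the ligase complex first and the kinase last in both states. Of 9 further end-joining genes fixed as a list, 7 passed the filter, and their intervals lay above 0 in both comparisons for 2 and below 0 in both for 3. NHEJ1, also called XLF, the XRCC4 partner, was among the 3 at -0.47 and -0.46, and POLQ, the polymerase of an alternative end-joining route, was among the 2 at 0.86 and 0.61.

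**Figure D3:**
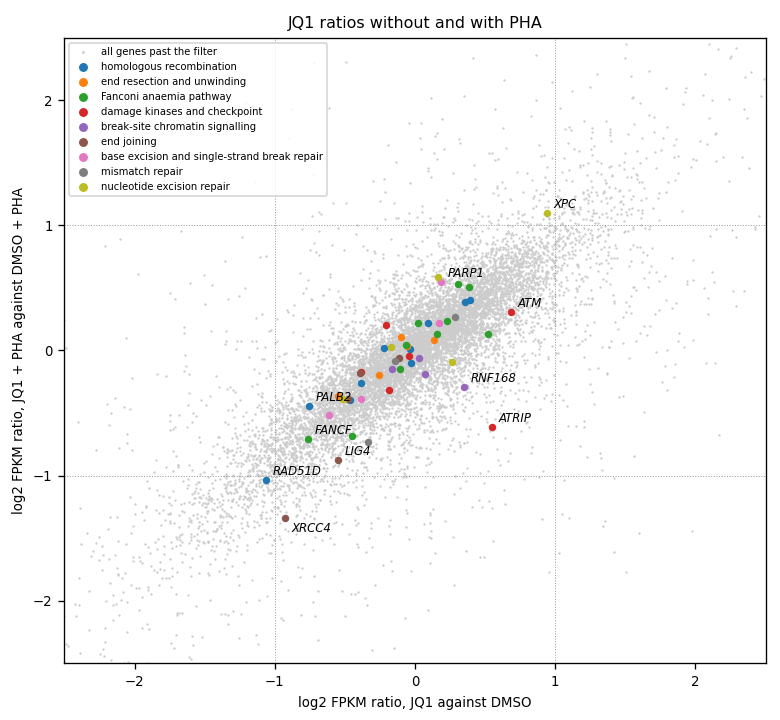
Log2 FPKM ratio of JQ1 against DMSO (x axis) and of JQ1 + PHA against DMSO + PHA (y axis) for repair genes, coloured by pathway, over all 11503 genes in grey; dotted lines mark 2-fold, and 205 genes lie beyond the plotted range of 2.5. Most repair genes cluster near the centre, with XPC at the upper right, RAD51D and XRCC4 at the lower left, and ATRIP (identifier ENSG00000164053) and RNF168 in the quadrant that is higher without PHA and lower with it.

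In base excision and single-strand break repair 2 genes were higher and 2 lower in both JQ1 comparisons. PARP1, which senses single-strand breaks (chr1:226360691-226408079), was at 63.6, 72.4, 53.7 and 78.7 FPKM from 11668, 13889, 10305 and 14273 counts. Both JQ1 libraries lay above both DMSO libraries, and DMSO + PHA was the lowest, so the ratio was 0.19 (0.15 to 0.22) without PHA and 0.55 (0.51 to 0.59) with it. XRCC1, the scaffold that follows PARP1, lay above 0 as well at 0.17 and 0.23. UNG, the glycosylase that removes uracil, was at 18.4, 12.0, 18.2 and 12.8 FPKM, with ratios of -0.62 (-0.71 to -0.52) and -0.52 (-0.61 to -0.42). LIG3, the ligase of this route, was at 8.48, 6.45, 8.36 and 6.35 FPKM, with ratios of -0.39 (-0.47 to -0.31) and -0.40 (-0.48 to -0.31). For UNG and LIG3 the 2 DMSO libraries agreed closely with each other, and so did the 2 JQ1 libraries.

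Mismatch repair was mixed. MSH3, which recognises larger loops, was at 13.5, 16.5, 13.7 and 16.5 FPKM, with ratios of 0.29 (0.18 to 0.40) and 0.27 (0.16 to 0.38). PMS2, an endonuclease subunit, was at 6.48, 5.10, 6.82 and 4.06 FPKM, with ratios of -0.34 (-0.51 to -0.18) and -0.75 (-0.92 to -0.58). PMS2 has 15 annotated relatives named as pseudogenes or pseudogene-like copies, and how reads were shared among them is not given in the sources used here. MSH6, which recognises single mispairs, was at 3.05, 2.75, 3.96 and 3.72 FPKM, with JQ1 ratios of -0.15 (-0.27 to -0.03) and -0.09 (-0.19 to 0.02). Its 2 libraries with PHA were the higher ones.

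Nucleotide excision repair held the largest ratio above 0 among the members compared. XPC (chr3:14145147-14178783) was at 14.4 FPKM in DMSO, 27.7 in JQ1, 11.4 in DMSO + PHA and 24.6 in JQ1 + PHA, from 1695, 3419, 1412 and 2876 counts. The JQ1 libraries were 1.93-fold higher without PHA (0.95, 0.86 to 1.03) and 2.15-fold higher with it (1.11, 1.01 to 1.199). Both JQ1 libraries stood clear of both DMSO libraries. DDB2, which finds ultraviolet lesions and hands them to XPC, was at 2.19, 2.47, 1.69 and 2.59 FPKM, with ratios of 0.17 (-0.01 to 0.35) and 0.61 (0.42 to 0.81). ERCC1, a subunit of the nuclease that cuts beside the lesion, went the other way at 4.46, 3.09, 4.21 and 3.19 FPKM, with ratios of -0.53 (-0.68 to -0.38) and -0.40 (-0.55 to -0.25). ERCC2, the TFIIH helicase, and XPA, the damage verifier, did not lie on the same side of 0 in both intervals.

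XPC and DDB2 are both known p53 targets, and a list of 13 further p53 target genes gave 10 past the filter, with median JQ1 ratios of 0.58 and 0.38 beside -0.01 and -0.02 over all genes, and intervals above 0 in both comparisons for 5 of 10 and below for 1, where all genes gave 28% and 30.8%. TP53INP1, which led that list, was at 1.01, 8.39, 2.14 and 7.83 FPKM, whereas FAS was at 2.28, 1.07, 2.53 and 1.53 FPKM. The list did not move as one. CDKN1A, its best-known gene, was under the filter at 0.391 to 0.602 FPKM.

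PHA alone left the repair genes near level. In DMSO + PHA against DMSO, 0 of 52 members were 2-fold higher, against 2.1% of all genes, and 0 were 2-fold lower, against 1.19%. In JQ1 + PHA against JQ1, 0 were 2-fold higher, against 1.04%, and 1, the ATRIP identifier above, was 2-fold lower, against 1.03%. Median log2 ratios of the members were -0.00 and 0.03. Intervals lay above 0 for 10 members and below for 15 in the first comparison, where all genes gave 24.7% and 25.1%, and above for 12 and below for 10 in the second, where all genes gave 15.6% and 15.7%. These 2 comparisons share no library with each other, but each shares its libraries with the JQ1 comparisons, so the values below are not separate evidence from those above.

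Of the 52 members, RNF168 had the highest PHA ratio without JQ1, 0.64 (0.57 to 0.70), and with JQ1 it was -0.00 (-0.07 to 0.06). ATM followed at 0.44 (0.37 to 0.50), and with JQ1 at 0.06 (0.00 to 0.11). LIG4, at 0.38 (0.30 to 0.46) and 0.05 (-0.05 to 0.15), and TP53BP1, at 0.33 (0.25 to 0.41) and 0.07 (-0.01 to 0.16), had the same form. In these 4 genes the PHA ratio was above 0 in DMSO and near 0 in JQ1. MSH6 differed from them, at 0.38 (0.27 to 0.49) in DMSO and 0.43 (0.32 to 0.55) in JQ1, and FANCE, a core complex subunit, at 0.36 and 0.32. XPC was at -0.33 (-0.43 to -0.23) and -0.17 (-0.24 to -0.10), lower with PHA in both states.

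**Figure D4:**
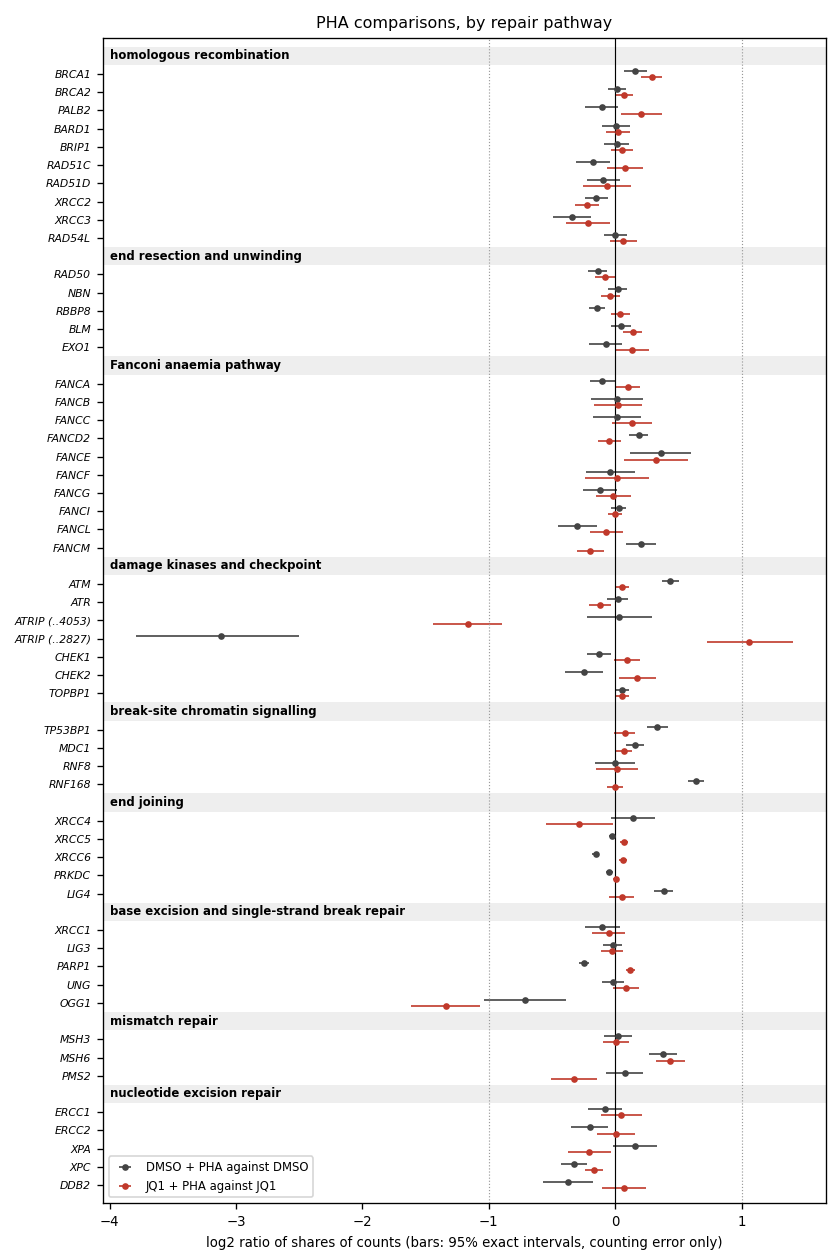
Log2 ratio of shares of counts for each repair gene in DMSO + PHA against DMSO (dark grey) and JQ1 + PHA against JQ1 (red), with 95% exact intervals for counting error; dotted lines mark 2-fold. Most points lie near 0, RNF168, ATM and LIG4 lie right of 0 in grey and near it in red, and in red the 2 ATRIP identifiers lie on opposite sides of 0.

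The JQ1 ratio with PHA and that without it could be told apart by counting error for 26 of 52 members, against 41.9% of all genes. The intervals of the 2 ratios lay on opposite sides of 0 for 3 members (ATRIP, CHEK2 and RNF168), against 4.18% of all genes. CHEK2, the checkpoint kinase that ATM activates, was at 5.87, 5.07, 4.95 and 5.72 FPKM, with ratios of -0.21 (-0.36 to -0.07) and 0.21 (0.06 to 0.36). Its 4 libraries lay within a narrow range, and 7 named pseudogenes of CHEK2 could share its reads. Besides CHEK2 and PMS2, the members BRCA1, RBBP8, FANCD2, XRCC6, PARP1 and UNG have named pseudogenes. The part of pseudogenes in any of these values was not tested.

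Some repair genes start close to another gene. Of the 52 members, 15 (28.8%) had a compared gene starting within 1000 bases on the opposite strand, head to head, against 17.6% of all compared genes, with strands taken from GENCODE release 44 because the deposited tables give none. The member and its neighbour had ratios of the same sign in 9 of 15 pairs without PHA and in 8 of 15 with it. The share of same-sign pairs over all compared genes is not given here, so these counts are not read further. XPC and LSM3, a splicing factor subunit, went opposite ways, at 0.94 and -0.49 without PHA and 1.10 and -0.28 with it. ATM and NPAT, a histone gene activator, went the same way, at 0.68 and 0.52 without PHA and 0.31 and 0.36 with it. XRCC4 was at -0.93 and -1.34 while its neighbour TMEM167A was at -0.32 and 0.00. The neighbour of PMS2, AIMP2, was the single partner past 2-fold in either JQ1 comparison, at -1.43 and -1.22.

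**Figure D5:**
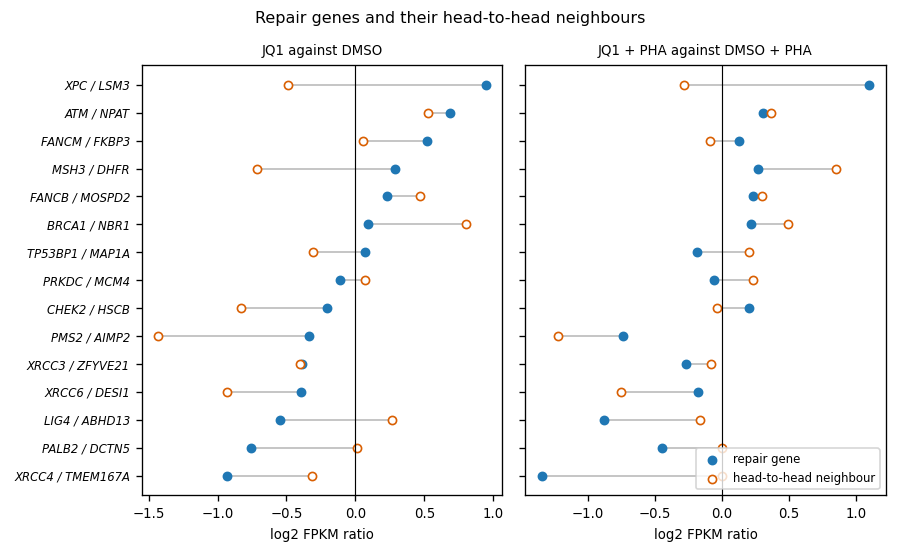
Log2 FPKM ratio of 15 repair genes (filled) and of the neighbour that starts head to head within 1000 bases (open), joined by a line, in JQ1 against DMSO (left) and JQ1 + PHA against DMSO + PHA (right). XPC and LSM3 lie on opposite sides of 0 in both panels, and PMS2 and AIMP2 both lie left of it.

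Loci of 24 members overlapped a gene with more than 3 counts in a library, and for 19 that gene held at least 20% of the member's own counts. XPC, XRCC4, ATM, BRCA1, MSH3 and MSH6 were among the 19, and RAD51D, PARP1, UNG, LIG4, XRCC5 and XRCC6 were not. The MSH6 locus as deposited overlaps FBXO11. The study's methods name a stranded library kit and the labels another kit, VAHTS Universal V6, and whether the counting used strand is not given in the sources used here, so the part of the overlapping genes in these values was not tested. Without the overlapping members, 1 gene, RAD51D, remained past 2-fold in each JQ1 comparison.

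By level, XRCC6 led the members at a mean of 196 FPKM, followed by XRCC5 at 102, PRKDC at 67.4, PARP1 at 67.1 and TOPBP1 at 29.8, and RAD51D was the lowest of those compared at 1.98. PRKDC and PARP1 changed places between libraries, so their order is not given as a difference. FPKM divides by a gene length set by the authors, which the counts imply to be 18.6 kb for RAD51D in a locus of 29.3 kb, so its place in the order of levels rests on that length. The member loci had a median span of 49.3 kb, against 26.3 kb for all compared genes, and across genes the rank correlation of span with the JQ1 ratio was 0.17 without PHA and 0.26 with it for members, and 0.14 and 0.11 for all genes.

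A wider list of 86 other repair and damage response genes gave 81 past the filter, with median JQ1 ratios of -0.02 and 0.04. Past 2-fold without PHA were 3 higher (SLX4, H2AFX and ERCC6) and 2 lower (NTHL1 and PARP3), and with PHA 3 higher (SLX4, H2AFX and ERCC5) and 1 lower (APEX1). Over all genes the shares were 5.22% higher and 8.65% lower without PHA and 3.69% and 8% with it. The shares of the 81 were smaller, except that 3 of 81 higher with PHA was about the same as 3.69%. SLX4, a nuclease scaffold, was at 2.75, 6.75, 2.92 and 6.82 FPKM, and H2AFX, the histone variant phosphorylated at breaks, at 13.6, 32.7, 11.8 and 34.9 FPKM. Both stood higher in both JQ1 libraries. NTHL1, a glycosylase of oxidised bases, was at 3.62, 1.02, 2.69 and 1.33 FPKM and APEX1, the main endonuclease of abasic sites, at 11.2, 7.73, 11.1 and 5.24 FPKM, both lower. Further recombination and resection genes had intervals above 0 in both JQ1 comparisons for 9 of 19 and below 0 for 1, and further base excision genes above for 0 of 12 and below for 5, where all genes gave 28% above and 30.8% below. A list of 15 proliferation genes had median ratios of -0.10 and -0.01, with 5 above 0 and 5 below 0 in both comparisons, beside the same shares of all genes.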

How the data were processed

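Total RNA of 4 Jurkat cultures was sequenced on an Illumina HiSeq2500. The tables of the authors give, per gene, a deposited count of reads and an FPKM value, on GRCh38. Hisat2 2.0.4 is named in the labels and the study's methods, and TopHat2 2.0.9 and Cufflinks 2.1.1 in the submitters' processing notes. The counting program and its strand setting are not given in the sources used here. Depth was 18620954 to 19685401 counts per library, and 3 counts, the floor, equal 0.152 to 0.161 CPM.

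Log2 ratios of FPKM used a pseudocount of 0.1 over genes whose FPKM averaged 1 or more, so they understate the differences of low genes. Ratios of count shares have 95% exact (Clopper-Pearson) intervals, and differences of 2 ratios Wald intervals, all for counting error only. With 1 library per condition no test was run. The intervals were also run on simulated counts that held counting error only, so that run cannot speak to variation between cultures. The members and lists were chosen with earlier results of these data known. Given in full, among members that passed the filter, were those past 2-fold in any comparison and the top 2 of each pathway by mean JQ1 ratio size. BRCA1, BRCA2, ATM, ATR, CHEK1, PRKDC, PARP1, FANCD2, MSH6, XPC and DDB2 were also given in full. Further members appear with fewer values. Alternatives were pseudocounts of 1 and 0.01, FPKM filters of 0.1, 5 and none, a 1.5-fold line, FPKM rescaled to a common total (TPM), centring on the median gene, and factors of edgeR 4.0.16 and DESeq2 1.42.0. Promoters came from RefSeq.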

Additional observations from a re-analysis of the deposited data

Results flagged for a closer look

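In 3 repair genes the JQ1 ratio lay on opposite sides of 0 without and with PHA by counting intervals; the difference itself was compared by counting error only and was not tested over replicates. For RNF168 the ratio with PHA minus that without was -0.64 (95% interval -0.73 to -0.55). For CHEK2 it was 0.42 (0.21 to 0.63). For ATRIP, under the identifier that passed the filter, it was -1.20 (-1.57 to -0.83), and the sum of its 2 identifiers gave ratios of 0.07 and 0.47, which are not opposed. No group held enough libraries to look for a sample far from the others.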

How the results depend on the processing

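No paired analysis was possible because each condition had 1 library. The count of repair genes past 2-fold was 1 in JQ1 against DMSO, 3 in JQ1 + PHA against DMSO + PHA, 0 in DMSO + PHA against DMSO and 1 in JQ1 + PHA against JQ1. In that order of comparisons, a 1.5-fold line gave 7, 8, 1 and 1. A pseudocount of 1 gave 0 in JQ1 against DMSO and 0 in JQ1 + PHA against JQ1. RAD51D then fell short of 2-fold in JQ1 + PHA against DMSO + PHA as well. A filter of 5 FPKM, which leaves out RAD51D and XRCC4, gave 0, 1, 0 and 0. A filter of 0.1 FPKM and no filter each gave 1 for DMSO + PHA against DMSO and 2 for JQ1 + PHA against JQ1, since the second ATRIP identifier enters the one and OGG1 the other. These filters also added that ATRIP identifier to JQ1 + PHA against DMSO + PHA, where its log2 FPKM ratio was 2.61. Chosen after seeing the data, the sum of both ATRIP identifiers gave 0 in JQ1 + PHA against JQ1, and leaving out members that overlap a gene with at least 20% of their counts gave 1 in JQ1 + PHA against DMSO + PHA and 0 in JQ1 + PHA against JQ1. The median ratios of the members kept within -0.11 to -0.01 and -0.07 to -0.01 in the 2 JQ1 comparisons under every alternative run. Rescaling to a common total turned the split of members in JQ1 + PHA against JQ1 from 34 above and 18 below 0 to 28 and 24. Of 624 single-gene values under the scalings and pseudocounts, 609 moved by less than their counting interval and 15 by more, and none of the values past 2-fold turned sign. Values near 0 did turn sign under a scaling: BRCA2 in JQ1 against DMSO (TPM and DESeq2), PRKDC in JQ1 + PHA against DMSO + PHA (DESeq2), LIG3, RNF8 and UNG in DMSO + PHA against DMSO (TPM), and FANCF, MSH3, PRKDC and RNF8 in JQ1 + PHA against JQ1 (TPM), among the genes given in full. With 1 library per condition, replicate variation sets a limit that depth does not.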

Other observations

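OGG1, the oxidised guanine glycosylase left out by the filter, had 208 counts in DMSO, 417 in JQ1, 133 in DMSO + PHA and 156 in JQ1 + PHA, or 0.681, 1.31, 0.416 and 0.516 FPKM. Its JQ1 ratio was 0.94 (0.70 to 1.19) without PHA and 0.31 (-0.03 to 0.66) with it, so JQ1 alone was its highest library. ERCC6, a remodeller of transcription-coupled repair, had 194, 606, 436 and 553 counts, with JQ1 ratios of 1.58 (1.34 to 1.82) and 0.42 (0.24 to 0.61), and ERCC5, the 3′ nuclease of nucleotide excision repair, had 1187, 1295, 1399 and 2710 counts, with ratios of 0.06 (-0.05 to 0.18) and 1.03 (0.94 to 1.13). ERCC5 was highest in JQ1 + PHA. ERCC6 was level between JQ1 and JQ1 + PHA, the ratio of the latter to the former being -0.05 (-0.22 to 0.12). Its DMSO + PHA library stood above DMSO, at 1.10 (0.86 to 1.35), so its JQ1 ratio was smaller with PHA.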
